A study of Homo sapiens with 22 samples.

Results

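The DPPA genes and the markers of the naive pluripotent state were followed through the reprogramming of human fibroblasts. The group holds 10 genes of the 33694 in the annotation, chosen by symbol: DPPA2, DPPA3, DPPA4, DPPA5, ALPPL2, ALPL, KLF17, ARGFX, SUSD2 and ZFP42. Each symbol was found once, and none of the genes codes for a transfected factor. The cells were BJ fibroblasts, an established line from human foreskin, grown in microfluidic channels under hypoxia. Messenger RNAs for POU5F1, SOX2, KLF4, MYC, LIN28 and NANOG were transfected daily up to day 8, and the type of medium was changed on day 9. The cells of D9 to D15 thus had all 8 transfections, and those of D3, D5 and D7 only the ones before their sampling. D0 is the control, taken before the first transfection, and D3, D5, D7, D9, D11, D13 and D15 are the days of reprogramming. Each day has 2 pools, A and B, and every pool combined the cells of several chips, so that single cultures cannot be separated and p-values measure the spread between pools only. Transcripts were counted from their 3′ ends with unique molecular identifiers (UMIs), in 22 libraries that make up the 16 pools.

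Human pluripotent cells can be held in a naive state, which is close to the epiblast before implantation, or in a primed state, which is close to the epiblast after it. Several of the 10 genes are used to tell these states apart: KLF17, SUSD2, ALPPL2, DPPA3 and DPPA5 are markers of naive cells, while DPPA2, DPPA4, ALPL and ZFP42 are expressed in pluripotent cells more widely. ARGFX is a homeobox gene of the early cleavage embryo. DPPA2 and DPPA4 code for related nuclear proteins that bind chromatin together, DPPA3 for a maternal protein that protects the egg's genome from DNA methylation, and DPPA5 for a small protein with an RNA-binding fold. ZFP42, also called REX1, codes for a zinc finger protein, ALPL for the tissue-nonspecific alkaline phosphatase that colony stains detect, ALPPL2 for a placental-like alkaline phosphatase on the cell surface, and SUSD2 for another surface protein.

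DPPA2 and DPPA4 are neighbours on chromosome 3, both on the minus strand. In gencode v44 (GRCh38), DPPA2 covers chr3:109293788-109316517 and DPPA4 covers chr3:109326144-109337546. DPPA5 is on chromosome 6 (73353063 to 73354276, minus strand) and ALPPL2, named ALPG there, on chromosome 2 (232406844 to 232410714, plus strand). The promoters of these 4 genes are shown because DPPA2, DPPA4 and DPPA5 had their highest days on D13 or D15, while ALPPL2 had its highest day on D9. They are RefSeq sequences of GRCh38.p14 from 250 bases before to 50 after the start, written 5′ to 3′ on the strand of the gene. Capitals mark a match to the KLF motif GGGTGTGG on either strand.
DPPA2 (chr3:109316468-109316767, minus strand): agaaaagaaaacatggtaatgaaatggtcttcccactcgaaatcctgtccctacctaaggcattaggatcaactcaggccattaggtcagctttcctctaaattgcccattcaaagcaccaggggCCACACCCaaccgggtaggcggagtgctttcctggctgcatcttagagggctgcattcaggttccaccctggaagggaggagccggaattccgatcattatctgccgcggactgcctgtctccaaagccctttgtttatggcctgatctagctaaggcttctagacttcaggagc
DPPA4 (chr3:109337497-109337796, minus strand): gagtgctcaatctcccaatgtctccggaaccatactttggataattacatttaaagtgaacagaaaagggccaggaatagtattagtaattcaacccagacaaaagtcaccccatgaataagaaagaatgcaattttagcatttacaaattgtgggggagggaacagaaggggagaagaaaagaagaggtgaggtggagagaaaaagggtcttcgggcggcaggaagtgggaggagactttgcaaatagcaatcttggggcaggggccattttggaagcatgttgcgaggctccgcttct
DPPA5 (chr6:73354227-73354526, minus strand): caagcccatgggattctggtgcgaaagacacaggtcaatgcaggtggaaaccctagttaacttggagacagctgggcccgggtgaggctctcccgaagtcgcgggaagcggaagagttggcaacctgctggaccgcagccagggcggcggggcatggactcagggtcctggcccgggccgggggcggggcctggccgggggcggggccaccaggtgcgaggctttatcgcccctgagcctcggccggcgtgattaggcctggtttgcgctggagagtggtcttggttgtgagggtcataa
ALPPL2 (chr2:232406594-232406893, plus strand): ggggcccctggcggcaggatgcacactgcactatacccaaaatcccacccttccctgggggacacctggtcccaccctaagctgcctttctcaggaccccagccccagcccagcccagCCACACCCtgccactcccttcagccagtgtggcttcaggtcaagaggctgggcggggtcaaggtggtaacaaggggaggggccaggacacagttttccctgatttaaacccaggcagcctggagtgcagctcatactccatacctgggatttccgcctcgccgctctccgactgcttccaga
Promoters were listed for 8 of the 10 genes, ARGFX and SUSD2 being the other two. The KLF motif was in the windows of DPPA2 and ALPPL2 and in 3.28% of all 35116 promoters of the same length. The octamer ATGCAAAT, searched on both strands, was in none of the windows of the 8 genes and in 1.77% of all promoters. The E-box CACGTG was in 1 of the 3 windows of ALPL and in 7.26% of all promoters. TATAAA was in another window of ALPL and in 11.5% of all promoters. The DPPA2 window held 7 CG pairs, the DPPA4 window 5, the DPPA3 window 6 and the ALPPL2 window 6, against a median of 14 over all promoters, whereas the windows of DPPA5, ZFP42 and KLF17 held 20, 24 and 18. These matches describe the letters of the windows only.

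Of 44197 barcodes, 41975 passed the limits on detected genes (1000 or more) and on mitochondrial transcripts (10% or less). The pools held 571 to 6142 cells, 33181614 to 180056814 UMIs in all and a median of 23717 to 80168 UMIs per cell. All 13 fibroblast markers, VIM and COL1A1 among them, were detected in every pool, and their summed level lay at 20748 CPM, the usual scaling of UMIs to a common total per pool, in pool A of D0 and 1230 CPM in pool A of D15. Within the libraries, 1065 of 40897 distinct barcodes occurred in more than 1 library, and no pair of libraries shared more than 2.11% of the smaller one. In pool sums, fewer cells with a transcript and less transcript per cell cannot be told apart, so shares of cells are given further on.

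In the fibroblasts of D0, the 10 genes were at or near 0. No UMI of DPPA2, ARGFX or ZFP42 was found in either pool of D0. DPPA3 had 1 UMI in each pool, DPPA4 had 2 in pool A and 1 in pool B, DPPA5 had 3 in pool A, and ALPPL2 had 1 in pool B. ALPL (0.354 CPM in pool A and 0.421 CPM in pool B), SUSD2 (0.312 and 0.374 CPM) and KLF17 (0.156 and 0.143 CPM) were detected at a low level. They are the control values for the days that follow. Of the 10 genes, 8 were detected in at least 5% of the kept cells and entered the test of 12794 genes. ALPPL2, found in 4.47% of cells, and KLF17, found in 0.236%, did not pass, and their tests come from fits with a wider set of genes. A gene was called when its adjusted p (edgeR's quasi-likelihood test, Benjamini-Hochberg) was below 0.01 and its log2 fold change was beyond 0.25 in size.

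**Figure D1:**
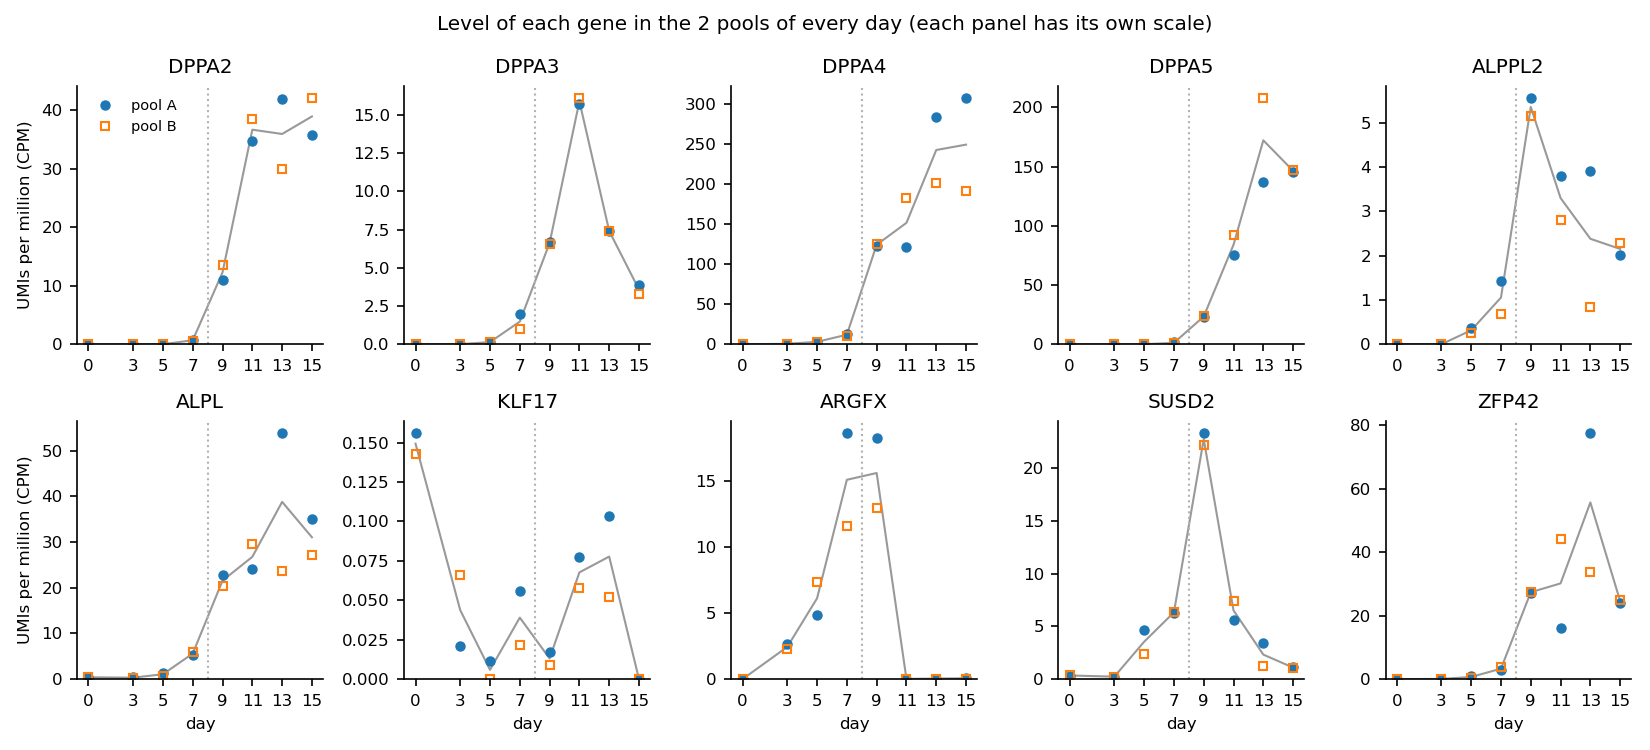
Level of each gene in CPM (vertical axis, a linear scale of its own in each panel) against the day (horizontal axis), with filled circles for pool A, open squares for pool B, a grey line through the means of the 2 pools and a dotted line at the last transfection. DPPA2, DPPA4 and DPPA5 stay high to D15, DPPA3, ALPPL2 and SUSD2 have their highest day on D9 or D11, ARGFX drops from 15.6 CPM on D9 to almost 0 on D11, and KLF17 never exceeds 0.156 CPM.

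ARGFX and DPPA4 were the first to appear. From D0 to D3, 2 of the 8 tested genes were called higher, against 13.1% of all tested genes called in that direction. ARGFX reached 2.63 CPM in pool A and 2.25 CPM in pool B of D3, from 587 UMIs in all, which is at least 251-fold above the limit of 3 UMIs for the day that the absence from D0 allows (adjusted p = 1.9e-06). DPPA4 reached 0.575 and 0.450 CPM in pools A and B, 52.1-fold above the 3 UMIs of D0 with a counting interval of 17.4 to 256 (adjusted p = 5.9e-06). ZFP42 had 5 UMIs in pool A and 4 in pool B of D3 and was not called (adjusted p = 0.054). Both calls held when any 1 of the 4 pools was left out. A fit of only the 4 pools of D0 and D3 called 0 of the 12794 genes, so it says nothing of these 2.

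From D3 to D5, 5 of the 8 genes were called higher (3.20% of all tested genes), namely SUSD2, DPPA4, DPPA3, ZFP42 and ALPL. SUSD2 rose from 0.234 CPM in pool A and 0.225 CPM in pool B to 4.70 and 2.38 CPM, a log2 fold change of 3.88 ± 0.41 (adjusted p = 9.1e-05). Values after ± are the size of the log2 fold change divided by the square root of edgeR's F statistic. Such values approximate a standard error and need not cover the counting error of a day with few UMIs. DPPA4 rose to 3.34 CPM in pool A and 2.78 CPM in pool B, a log2 fold change of 2.54 ± 0.27 (adjusted p = 8.8e-05). These calls did not depend on any single pool. The other 3 did. The log2 fold change of ZFP42 was 4.13 ± 0.72 and was no longer called without pool A of D5 (adjusted p = 0.098) or without either pool of D3 (adjusted p = 0.020 and 0.058). That of ALPL was 1.80 ± 0.37 (adjusted p = 0.0098) and was lost without any 1 of the 4 pools, with adjusted p between 0.013 and 0.18. DPPA3 counted 1 UMI on D3 and 17 on D5, a 34.5-fold difference with a counting interval of 5.41 to 1443, and was lost in the same way (adjusted p between 0.012 and 0.032). With only the pools of D3 and D5 in the fit, 0 of the 8 genes and 0.211% of all tested genes were called higher.

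ALPPL2 was not seen on D3 and had 32 UMIs in pool A and 9 in pool B of D5, but 17 of the 32 UMIs came from 1 cell. The rise was called in the fit with more genes (adjusted p = 0.0083, edgeR), where 3.39% of genes were called higher. Single cells weighed on other early values as well. One cell gave 61 of the 401 UMIs of SUSD2 in pool A of D5, and another gave 9 of the 98 UMIs of DPPA4 in pool B. The 2 aliquots of pool A of D5 also differed for SUSD2, with 5.57 CPM in the first and 1.41 CPM in the second.

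On D7 the DPPA genes were present in both pools. From D5 to D7, 5 of the 8 genes were called higher (1.81% of all tested genes): DPPA2, DPPA3, DPPA4, DPPA5 and ALPL. DPPA2 went from no UMI to 0.806 CPM in pool A and 0.563 CPM in pool B, at least 27.6-fold above the limit of 3 UMIs on D5 (adjusted p = 0.00022). DPPA5 went from 4 and 2 UMIs in pools A and B to 1.49 and 0.833 CPM, a log2 fold change of 4.53 ± 0.57 (adjusted p = 0.00088). DPPA3 rose to 1.98 CPM in pool A and 0.987 CPM in pool B (log2 fold change 3.40 ± 0.38, adjusted p = 0.00035), DPPA4 to 12.99 and 10.8 CPM (1.96 ± 0.25, adjusted p = 0.00061) and ALPL to 5.33 and 5.85 CPM (2.35 ± 0.34, adjusted p = 0.0015). Without pool A of D5, none of the 5 was called by edgeR, with adjusted p between 0.013 for DPPA2 and 0.053 for DPPA5, and without pool B of D5 the calls of DPPA4 (adjusted p = 0.011) and ALPL (adjusted p = 0.024) were lost. ARGFX stood at 18.7 CPM in pool A and 11.6 CPM in pool B of D7, above both pools of D5, but did not pass the test (log2 fold change 1.29 ± 0.32, adjusted p = 0.043).

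The widest rise fell between D7 and D9, when 7 of the 8 genes were called higher (4.59% of all tested genes). For each of the 7, both pools of D9 lay above both pools of D7. DPPA2 counted 1272 UMIs in pool A and 1531 in pool B, a mean of 12.3 CPM (log2 fold change 4.13 ± 0.27, adjusted p = 1.1e-05). DPPA5 reached 22.8 and 24.1 CPM (4.29 ± 0.37, adjusted p = 3.6e-05), and DPPA4 reached 123 and 126 CPM (3.35 ± 0.25, adjusted p = 8.8e-06). DPPA3 rose to 6.66 CPM in pool A and 6.58 CPM in pool B (2.12 ± 0.29, adjusted p = 0.00038). These 4 calls held without any 1 pool. ZFP42 rose to 27.2 and 27.5 CPM (3.02 ± 0.47), ALPL to 22.7 and 20.4 CPM (1.91 ± 0.31) and SUSD2 to 23.3 and 22.2 CPM (1.81 ± 0.35). The call of ZFP42 was lost without either pool of D7 (adjusted p = 0.018 and 0.017), that of ALPL without either pool of D7 or pool A of D9 (adjusted p between 0.012 and 0.022) and that of SUSD2 without any 1 of the 4 pools (adjusted p between 0.024 and 0.049). ARGFX was the exception, at 18.3 CPM in pool A and 12.95 CPM in pool B, within the range of D7 (log2 fold change 0.01 ± 0.31).

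After D9 the genes parted. From D9 to D11, DPPA2 and DPPA5 were called higher (2.92% of all tested genes) and ARGFX and SUSD2 were called lower (1.17% of all tested genes). ARGFX counted 2118 UMIs in pool A and 1458 in pool B of D9, and 3 and 2 UMIs in pools A and B of D11. Its log2 fold change was -9.95 ± 0.52 (adjusted p = 6.4e-06), and the call held without any 1 pool and under every other setting tried. It stayed at 3 and 5 UMIs on D13 and 3 and 2 UMIs on D15. SUSD2 fell to 5.60 CPM in pool A and 7.43 CPM in pool B of D11, a log2 fold change of -1.83 ± 0.35 (adjusted p = 0.0061). DPPA2 rose to 34.8 and 38.6 CPM (1.56 ± 0.24, adjusted p = 0.0031) and DPPA5 to 75.6 and 92.4 CPM (1.82 ± 0.33, adjusted p = 0.0055). Except for ARGFX, each of these calls was lost without any 1 of the 4 pools, with adjusted p between 0.019 and 0.077. The interval between D9 and D11 is the first without a transfection and the first in the new medium, and these 2 changes and the passage of time cannot be told apart in this design. Markers of mesendoderm, the precursor of mesoderm and endoderm, moved in the same interval: of a list of 6 genes, 3 were tested and all 3 were called higher. They were CER1 (0.588 and 0.906 CPM in pools A and B of D9, 109.7 and 91.2 CPM on D11), MIXL1 (8.82 and 10.6 CPM, then 54.5 and 30.7 CPM) and EOMES (0.969 and 1.42 CPM, then 11.5 and 9.26 CPM). Their part in the changes of the 10 genes was not tested.

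DESeq2, run as an alternative, added calls in 4 of the comparisons up to D11. These were ZFP42 from D0 to D3 (16.8% of all tested genes called higher), ARGFX from D3 to D5 (5.33%), ARGFX and ZFP42 from D5 to D7 (3.60%) and DPPA3 from D9 to D11 (6.30%), all higher on the later day.

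DPPA3 had its maximum on D11, at 15.7 CPM in pool A and 16.1 CPM in pool B, and no pool of another day reached these values. It then stood at 7.43 and 7.39 CPM on D13 and at 3.89 and 3.27 CPM on D15. From D11 to D15, DPPA3 (log2 fold change -2.07 ± 0.29, adjusted p = 0.00065) and SUSD2 (-2.50 ± 0.38, adjusted p = 0.0011) were called lower (6.18% of all tested genes). Both calls were lost without either pool of D15, with adjusted p of 0.011 and 0.012 for DPPA3 and 0.018 and 0.017 for SUSD2.

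Between the adjacent days D11, D13 and D15, none of the 8 genes was called by edgeR. From D11 to D13, where 0.117% of all tested genes were called in either direction, 4 of the 8 had an unadjusted p below 0.05 (DPPA3, DPPA4, DPPA5 and SUSD2), as had 16.2% of all tested genes, and DESeq2 called 1, SUSD2, lower (1.86% of all tested genes). From D13 to D15, where 0.0860% were called, 3 had an unadjusted p below 0.05 (DPPA3, SUSD2 and ZFP42), as had 23.2% of all tested genes, and DESeq2 called 0. The pools of D13 lay far apart for some genes. ZFP42 stood at 77.5 CPM in pool A and 33.8 CPM in pool B of D13, ALPL at 53.8 and 23.7 CPM, ALPPL2 at 3.91 and 0.848 CPM and SUSD2 at 3.41 and 1.24 CPM, while DPPA5 was lower in pool A (137 CPM) than in pool B (208 CPM). The fibroblast markers summed to 4502 CPM in pool A and 2108 CPM in pool B of the same day, and whether this bears on the genes was not tested. On D11 ZFP42 differed, with 16.1 CPM in pool A and 44.2 CPM in pool B, whose 2 aliquots gave 23.8 and 47.5 CPM. DPPA4 stood at 121 CPM in pool A and 182 CPM in pool B of D11.

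Over the whole course, all 8 tested genes were called higher on D15 than on D0 (26.8% of all tested genes). DPPA2 was at least 4181-fold and ZFP42 at least 2587-fold above the limit of D0. DPPA4 was 24103-fold above its 3 UMIs, with a counting interval of 8247 to 116888. The log2 fold change of ALPL was 6.26 ± 0.39 and that of SUSD2 1.60 ± 0.40. ARGFX rested on 5 UMIs on D15 and lost its call without either pool of D0 or pool A of D15 (adjusted p = 0.017, 0.016 and 0.033), and SUSD2 lost its call without any 1 pool (adjusted p between 0.016 and 0.029). From D9 to D15, DPPA2 (1.73 ± 0.24), DPPA4 (1.07 ± 0.23) and DPPA5 (2.71 ± 0.34) were called higher (10.8% of all tested genes), and ARGFX (-8.14 ± 0.51) and SUSD2 (-4.33 ± 0.40) were called lower (10.2% of all tested genes). Of these 5 calls, DPPA4 alone depended on single pools: its adjusted p was 0.036 and 0.031 without pool A and pool B of D9 and 0.062 without pool A of D15.

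ALPPL2 had its highest day on D9, as SUSD2 did. It stood at 5.55 CPM in pool A and 5.16 CPM in pool B of D9, above every other pool of the course, and at 2.02 and 2.28 CPM on D15. In the edgeR fit with a wider set of genes, its rise from D0 to D15 was called (adjusted p = 1.2e-05), as were 26.8% of genes. Its change from D9 to D15 was not called (log2 fold change -1.25 ± 0.54, adjusted p = 0.085). Neither was its step from D5 to D7 (1.70 ± 0.63, adjusted p = 0.19) or from D7 to D9 (2.30 ± 0.55, adjusted p = 0.016). Without any filter on genes, 8 of the 10 were called higher from D7 to D9, ALPPL2 among them. Over all genes it was 1252 of 29281. That fit called 4 of the 10 lower from D9 to D15 (10.9% of all genes), against 2 of 8 in the main fit (10.2%). In pool A of D11, 1 cell held 216 of its 685 UMIs, so that the level was 3.80 CPM with this cell and 2.61 CPM without it. Of the other alkaline phosphatases, ALPP, the placental enzyme, had a highest day mean of 0.293 CPM on D9. ALPPL2 and ALPP are near-identical copies, and the division of their reads is uncertain.

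KLF17, the naive-state factor of the group, was nearly undetected on all days. Its highest level was that of the fibroblasts, from 26 UMIs in pool A and 21 in pool B of D0. Later days gave 0 to 14 UMIs per pool, and D15 gave none. In the fit without a filter on genes KLF17 was called lower on D15 than on D0 (adjusted p = 0.00059, with 18.6% of genes called lower), at least 4.89-fold by its counts. In pool A of D11, 9 of its 14 UMIs came from 1 cell.

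To order the genes, the onset was taken as the first day on which both pools reached 10% of the mean of the highest day with at least 3 UMIs. ARGFX had its onset on D3, SUSD2 on D5, ALPPL2 and ALPL on D7, and DPPA2, DPPA3, DPPA4, DPPA5 and ZFP42 on D9. DPPA4, although called from D3, stood at 4.78% of its D15 mean on D7. A level of 50% of the highest day's mean was reached in both pools on D7 by ARGFX, on D9 by ALPPL2, ALPL and SUSD2, on D11 by DPPA2 and DPPA3, and on D13 by DPPA4, DPPA5 and ZFP42. The highest day was D9 for ARGFX, SUSD2 and ALPPL2, D11 for DPPA3, D13 for DPPA5, ALPL and ZFP42, and D15 for DPPA2 and DPPA4. For SUSD2, ALPPL2 and DPPA3 no other day overlapped the pools of the highest day. The highest day of DPPA2 overlapped D11 and D13, that of DPPA4 overlapped D13, that of DPPA5 overlapped D15, that of ALPL overlapped D11 and D15, that of ZFP42 overlapped D11 and that of ARGFX overlapped D7, so their order within these days is not resolved. With 20% of the highest day as the limit, the onset moved to the next sampled day for ARGFX, SUSD2, ALPPL2, ALPL and DPPA5.

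**Figure D2:**
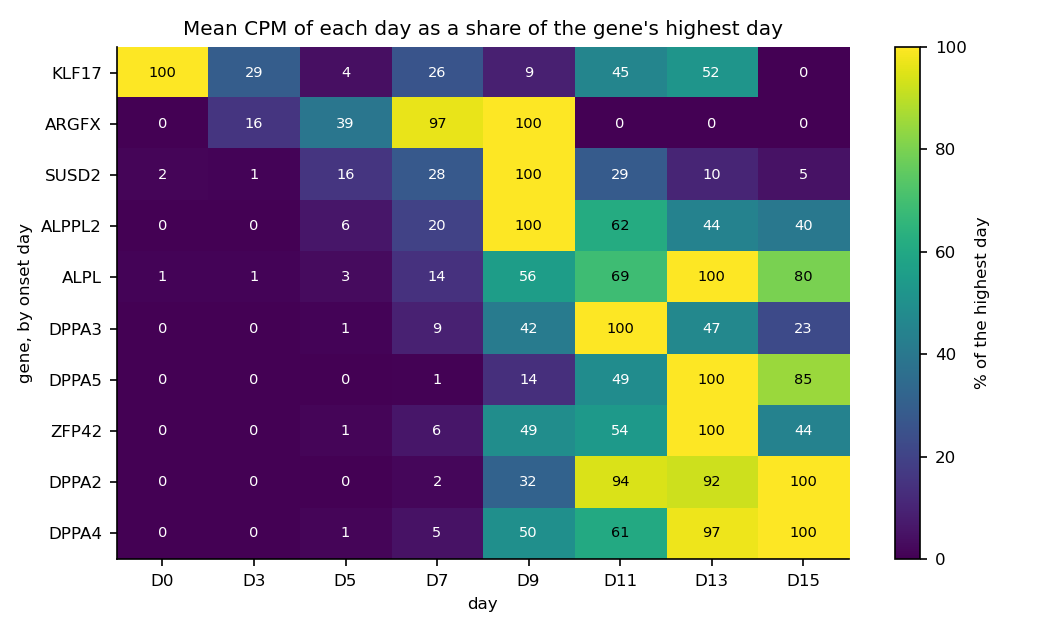
Mean CPM of each day (columns) as a percentage of the gene's highest day (colour and printed value), with the genes ordered by onset day from top to bottom. ARGFX, SUSD2 and ALPPL2 are highest on D9, DPPA3 is highest on D11, and the DPPA2 and DPPA4 rows end at 100; KLF17 is highest on D0, at 0.149 CPM.

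The genes whose course over the 16 pools was most like that of each tested gene were then listed. Likeness was measured as Pearson's r of log2(CPM + 1) over the 16 pools, which share the course of the days, and is a description. DPPA4 was closest to POU5F1 (r = 0.996), DPPA2 to RAB25 (r = 0.997), DPPA5 to FOXD3-AS1 (r = 0.998), ALPL to ZSCAN10 (r = 0.994) and ZFP42 to OCLN (r = 0.995). DPPA3 was closest to CSH1, a placental lactogen (r = 0.986), and to ACTA1, the actin of skeletal muscle (r = 0.981), which had their highest mean on D11 as well. SUSD2 was closest to MCHR1 and NGFR (r = 0.966 and 0.963), both highest on D9. ARGFX was closest to SMAD1 (r = 0.959), and its second match, LIM2, went from 22.3 CPM on D9 to 2.53 CPM on D11.

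Other genes of the naive state did not share 1 course. Of 18 further naive-state genes, chosen like the other lists with earlier results of these data known, 7 were tested. From D9 to D15 none of the 7 was called higher and 3 were called lower, beside 10.8% and 10.2% of all tested genes, with a median log2 fold change of -1.40 against 0.01 over all tested genes. The 3 were KLF5, TFAP2C and TBX3, all transcription factors. TFAP2C was already at 8.74 CPM in pool A and 9.07 CPM in pool B of D0. It stood at 28.7 and 27.1 CPM on D9, its highest day, and at 3.74 and 4.84 CPM on D15. KHDC3L, an oocyte gene, rose from 0.0180 and 0.0272 CPM on D0 to 27.3 and 30.0 CPM on D11 and stood at 31.2 and 20.7 CPM on D13. Of the 11 genes of the list that were too rare for the main test, 3 were called higher and 3 lower from D9 to D15 in the fit without a filter on genes, where 8.66% and 10.9% of all genes were called. TBX3 was highest in the fibroblasts, at 136 and 131 CPM. Of the 3 highest fibroblast markers, VIM (log2 fold change -1.92 ± 0.38) and S100A4 (-2.43 ± 0.21) were called lower from D9 to D15. COL1A1 (-0.28 ± 0.42) was not. Whether this bears on the naive-state genes was not tested. All 15 primed-state genes were tested, and 9 were called higher and 3 lower from D9 to D15, against the same 10.8% and 10.2% of all tested genes, with a median log2 fold change of 1.87. The 3 that fell were ETV4, ETV5 and THY1. ETV4 and ETV5 were named, like KLF5, after their values were seen. CD24, a surface protein, went from 362 CPM in pool A and 353 CPM in pool B of D9 to 1196 and 1303 CPM on D15. All 15 genes shared by both states, among them TERF1, L1TD1 and TDGF1, were called higher from D0 to D15, as were 26.8% of all tested genes.

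The share of cells with a transcript was compared after each cell was thinned to 10000 UMIs, leaving out the 0 to 92 cells of a pool that held fewer. Shares are of cells with at least 1 UMI at this depth, and their counting intervals do not cover the spread between pools. DPPA4 was found in none of the 6050 and 4584 cells of pools A and B of D0, which allows shares of up to 0.0496% and 0.0654%, in 41.2% of cells of pool A and 45.5% of pool B on D9, and in 85.8% and 75.3% on D15. Without thinning the shares were 63.3% and 69.4% on D9 and 97.0% and 89.4% on D15. Shares of other genes also depended on depth. When cells were not thinned, 71 of the 80 shares of a gene on a day moved by more than the spread between pools. DPPA5 was found in 8.32% and 9.26% of cells on D9 and in 56.7% and 56.5% on D15, and DPPA2 in 7.46% and 8.95% on D9 and in 28.7% and 31.9% on D15. ZFP42 was found in 22.1% and 22.2% of cells on D15. Unthinned, the D15 shares of pools A and B were 86.0% and 79.5% for DPPA5 and 73.4% and 60.4% for DPPA2. The unthinned D9 shares were 22.3% and 28.2% for DPPA5 and 26.0% and 30.6% for DPPA2. For ZFP42 the unthinned D15 shares were 63.9% and 47.6%.

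DPPA3, ALPPL2 and SUSD2 were detected in smaller shares of cells, which limit the cells with a UMI and not the cells that express the gene. DPPA3 was found in at most 10.4% of the cells of a pool (pool A of D11), ALPPL2 in at most 4.54% (pool B of D9) and SUSD2 in at most 17.1% (pool A of D9). Unthinned, the highest share of a pool was 34.4% for DPPA3, 18.6% for ALPPL2 and 49.1% for SUSD2. ARGFX was found in 13.5% and 6.19% of cells on D7 and in 11.1% and 8.89% on D9. On D11 it was found in none of the 2925 and 3276 cells, which allows shares of up to 0.103% and 0.0916%. Unthinned, the ARGFX shares were 49.9% in pool A and 16.1% in pool B of D7. They were 27.2% and 24.9% on D9, and 0.0684% and 0.0609% on D11. The shares on D0, the control day, were 0 for ARGFX and ALPPL2, 0.347% and 0.436% for SUSD2 and 0 and 0.0218% for DPPA3. KLF17 never exceeded 0.131% of the cells of a pool, its value in pool B of D0.

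Cells with DPPA4 held on average 2.56 UMIs of it in both pools of D9, and 3.56 UMIs in pool A and 2.49 in pool B of D15. For DPPA5 the means were 2.38 and 2.15 UMIs in pools A and B of D9 and 2.46 and 2.41 on D15. These means are over cells with at least 1 UMI and cannot fall below 1.

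Within a pool, 7 of the 10 genes were found more often in the cells with more pluripotency transcripts. The cells of each pool of D9 to D15 were ranked by the summed UMIs of the 15 genes shared by both states, none of which is among the 10 genes, and the highest 25% of cells were compared with the lowest 25%. The difference was tested by an exact two-sided sign-flip permutation test over the 8 pools, with adjustment over the 10 genes and a limit of 0.05 for the adjusted p. For DPPA4 the share in the highest 25% exceeded that in the lowest by 64.1 percentage points on average, and in 8 of 8 pools (adjusted p = 0.011). DPPA5 (40.2 points), ZFP42 (32.2), DPPA2 (30.0), ALPL (18.2), DPPA3 (10.8) and ALPPL2 (4.09) were higher in 8 of 8 pools as well, with the same p, since 0.0078 before adjustment is the smallest this test can give. Of the 12779 tested genes outside the 15 of the ranking, 23.9% were higher in all 8 pools, among them 6 of the 8 tested members. ALPPL2 is not in this set. Of these 12779 genes, 24.6% had a larger mean difference than ALPPL2, 11.7% a larger one than DPPA3 and 4.34% a larger one than ALPL. For DPPA4 and DPPA5 these shares were 0% and 0.274%. The 8 pools come from 4 days, and pools of 1 day share their day. SUSD2 (2.85 points, higher in 3 of 8 pools, adjusted p = 0.52), ARGFX (3.03 points, 3 of 8 pools, adjusted p = 0.31) and KLF17 (2 of 8 pools, adjusted p = 0.88) did not pass this limit. For ARGFX and KLF17 the test is void, since ARGFX was found in 0 or 1 cell in each pool of D11 to D15 and KLF17 was hardly detected in any pool.

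For SUSD2 the difference had both signs. On D9 it was found in 27.8% of the highest and 8.03% of the lowest 25% of cells of pool A, and in 17.7% and 9.90% in pool B. On D13 it was found in 2.03% of the highest and 4.35% of the lowest 25% of pool A. In pool B the shares were 1.19% and 2.08%. Few cells of D13 held SUSD2, 41 in all of pool A and 56 in all of pool B. ARGFX on D9 was most frequent in the cells just below the highest 25%, at 20.5% of cells in pool A and 15.3% in pool B, against 14.5% and 11.9% in the highest 25% and 1.38% and 1.45% in the lowest. DPPA4 was found in 58.7% of the lowest 25% of cells of pool A of D15, and from the next 25% upward in 93.7%, 97.2% and 93.7%.

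**Figure D3:**
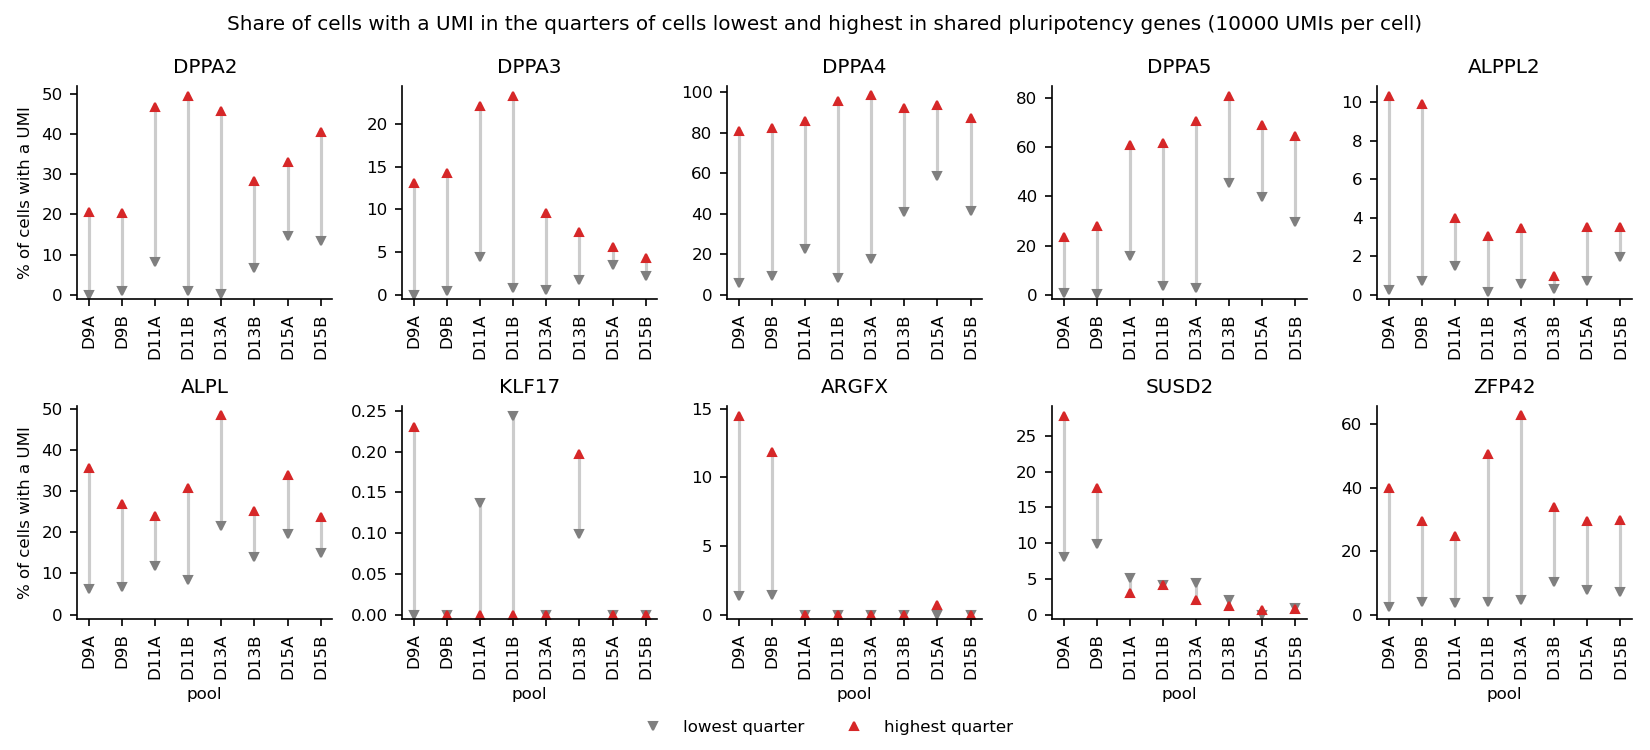
Percentage of cells with a UMI of each gene at 10000 UMIs per cell (vertical axis) in each pool of D9 to D15 (horizontal axis), for the 25% of cells lowest (grey) and highest (red) in shared pluripotency genes. The red marks lie above the grey in all 8 pools for DPPA2, DPPA3, DPPA4, DPPA5, ALPPL2, ALPL and ZFP42, and in 3 of the 8 pools for SUSD2.

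The genes were also detected together. For each pool of D7 to D15 and each pair of genes with at least 20 cells of either, the odds ratio of detection in the same cell was computed. Of the 45 pairs, 28 could be measured in at least 5 pools, and 16 of these had a log2 odds ratio above 0 in every pool measured. Cells of 1 pool share their culture, and the values are given as a description over pools. They depend on depth: of the 36 pairs with any value, the median moved by more than the spread between pools for 16 without thinning, 8 at 20000 UMIs and 7 at 5000 UMIs per cell. No doublet caller was run, so that a barcode with transcripts of several genes may hold more than 1 cell. DPPA2 and DPPA4 had a median log2 odds ratio of 2.58 over 8 pools, with a range of 1.13 to 4.53. In pool A of D13, 96.9% of the cells with DPPA2 also had DPPA4, against 56.5% of the cells without DPPA2, the highest ratio of the 8 pools. Pool B of D13 had the lowest ratio, with 85.3% against 72.5%. DPPA3 and ALPPL2 had the highest median, 2.73 over 7 pools with a range of 0.63 to 2.94, but from 78 cells in all that held both. On D9, 19.2% of the cells with DPPA3 in pool A had ALPPL2, against 3.49% of those without, and in pool B the shares were 20.2% and 3.70%.

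Most medians were lower in a narrower range of cells, and the cause was not tested. In the upper 50% of the cells of each pool by shared pluripotency genes, the median log2 odds ratio of DPPA2 and DPPA4 was 0.98 and that of DPPA4 and DPPA5 was 0.48, compared with 1.94 in all cells. The median was above 0 for 26 of the 28 pairs there and for 26 in all cells, with 25 pairs in both, and 5 pairs were above 0 in every pool measured there. ALPPL2 and SUSD2 changed least of the 28, with a median of 1.53 in all cells and 1.48 in the upper 50%, each of their 5 pools there lying above 0, but in all cells the value rested on 64 cells with both genes over 6 pools. Pool B of D13 had no such cell, and its value lies above 0 only through the 0.5 added to each count of an odds ratio. DPPA3 and ALPPL2 had 1.69 there, above 0 in 6 of 7 pools. The lowest medians of the 28 belonged to SUSD2, with -0.27 with DPPA5 and -0.03 with DPPA2 in all cells, and 0.26 and -0.31 in the upper 50%. ARGFX and DPPA5 could be measured in the pools of D9 only, where the log2 odds ratio was -0.33 and -0.31.

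**Figure D4:**
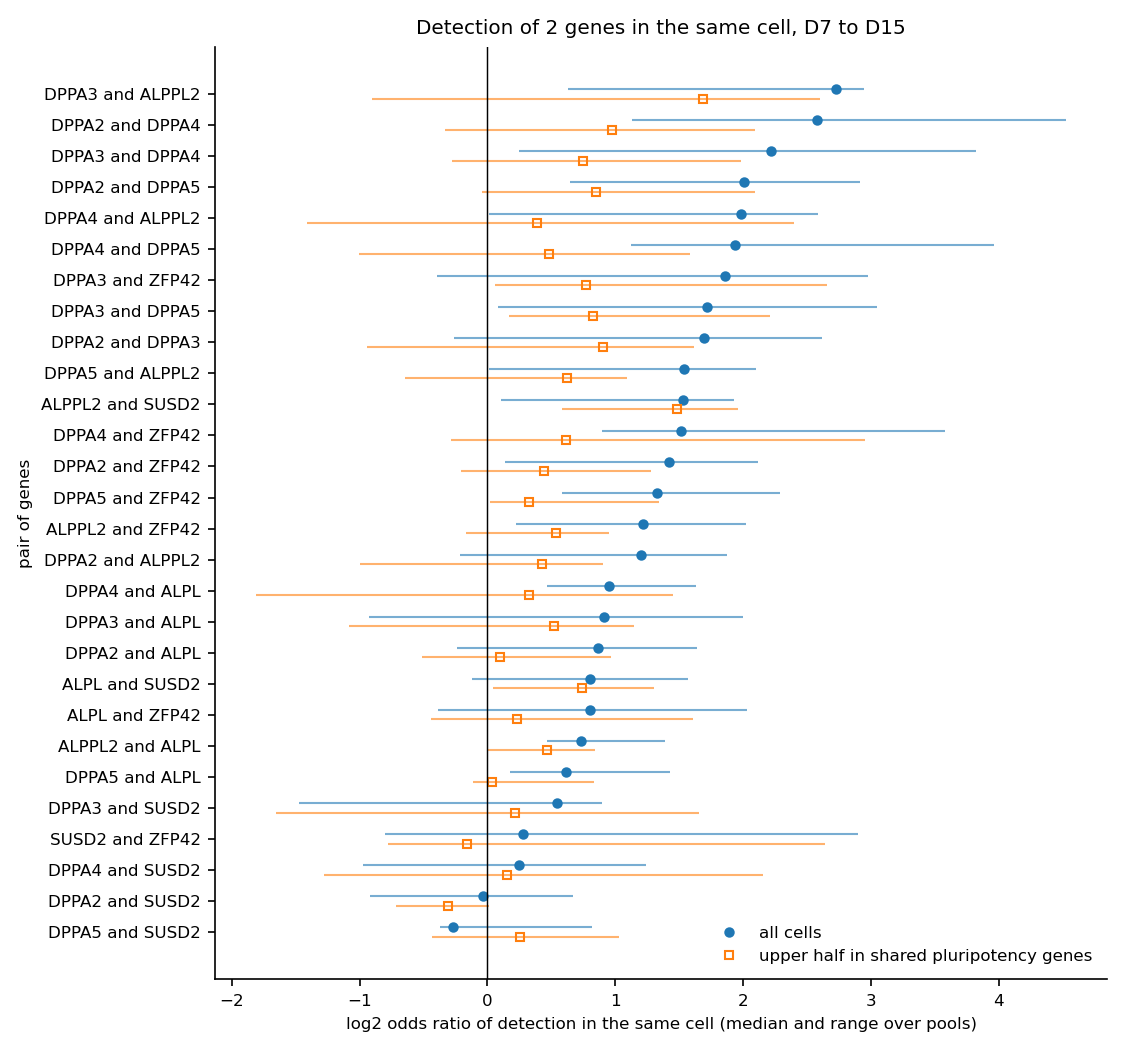
Log2 odds ratio of detection in the same cell (horizontal axis) for the 28 pairs of genes measured in at least 5 pools (vertical axis), as the median (mark) and range (line) over pools. Filled circles stand for all cells and open squares for the upper 50% of cells in shared pluripotency genes. The squares lie closer to 0 than the circles for most pairs, and ALPPL2 with SUSD2 keeps about the same median (1.53 and 1.48).

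ARGFX was also set beside the transfected factors, a choice made after its values were seen. UMIs of a factor can come from the transfected RNA or from the cell's own gene, which these counts do not separate. On D0, before any transfection, MYC stood at 18.4 CPM in pool A and 19.0 CPM in pool B, and KLF4 at 49.1 and 58.2 CPM. LIN28A stood there at 0.0120 and 0 CPM, and SOX2 at 0.00600 and 0.0204 CPM. MYC was found less often in cells with ARGFX in each of the 8 pools of D3 to D9. None of the 40 cells with ARGFX in pool A of D3 had MYC, and in the other 7 pools the log2 odds ratio was -2.02 to -0.62. In pool A of D9, MYC was found in 15.98% of the cells with ARGFX and 32.2% of those without. LIN28A and SOX2 each had a log2 odds ratio above 0 in every pool of D3, D5 and D7 and in pool B of D9, and below 0 in pool A of D9. In pool A of D3 the value of SOX2 rests on 1 cell with both genes. There SOX2 was found in 2.50% of the cells with ARGFX and 2.44% of the others. For LIN28A the log2 odds ratio ran from -0.23 in pool A of D9 to 2.99 in pool A of D5, where 85.0% of the cells with ARGFX and 40.0% of the others had LIN28A. NANOG was above 0 in all 4 pools measured, those of D7 and D9, with 0.76 to 2.81. POU5F1 and KLF4 had both signs.

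At 10000 UMIs per cell, 61.8% of the cells of pool A and 64.4% of pool B of D9 held at least 1 of the 10, and 7.98% and 6.84% held at least 4. On D15, 92.6% and 90.8% held at least 1, and 13.8% and 12.1% held at least 4. The share with at least 4 was higher between these days in some pools, at 8.44% and 14.9% in pools A and B of D11 and 23.9% and 13.1% on D13. Cells with at least 6 of the 10 were few, with 12 and 13 on D9, 11 and 42 on D11, 19 and 4 on D13, and 1 and 3 on D15 in pools A and B. No cell held more than 7. On D0, 0.826% and 0.982% of cells held at least 1, and no cell held 2.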

How the data were processed

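The authors aligned and counted the reads with Cell Ranger 2.2 against GRCh38, and the deposited values are raw UMI counts per gene and cell, with no normalization. Barcodes were required to show 1000 or more genes, with no more than 10% of UMIs from mitochondrial genes, and the cells of a pool were summed, aliquots together. Days came from the sample labels. Genes found in at least 5% of kept cells (12794) were tested with edgeR 4.0.16 (R 4.3.3) in 1 quasi-likelihood fit over all 16 pools, with TMM scaling. For ALPPL2 the values come from a fit with the share averaged over days (12944 genes), a filter added after seeing the data. KLF17 entered only without a filter, in a fit that also held ALPPL2. DESeq2 1.42.0 was an alternative. On counts simulated for D5 to D7 (12794 genes), 2, 46, 50 and 50 of 50 genes changed by 2, 4, 8 and 16 times were called, with 2 false calls. The changed genes were picked at random, with means set from all 16 pools. Their recovery therefore does not describe genes as rare as several members were on D5. Exact permutation over 8 pools was done in numpy 2.4.6, and counting intervals came from scipy 1.17.1. The count and the shares over all tested genes beside it used a separate random thinning. Counting intervals are 95% and cover counting error only. All 10 genes were named, and others by a rule: the 3 genes most alike in course and the 3 highest of each list. MYC, NANOG, KLF4, KLF5, ETV4, ETV5, TPRX1, ZSCAN4, DUXA, DPRX and PRAMEF1 fell outside it and were named after their values were seen. The members and lists were chosen with earlier results of these data known.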

Additional observations from a re-analysis of the deposited data

Results flagged for a closer look

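For SUSD2, the difference between the 25% of cells highest and the 25% lowest in shared pluripotency genes had opposite signs on different days. The share of cells with SUSD2 was higher in the highest 25% in both pools of D9, by 13.8 percentage points on average, and lower in both pools of D13, with a mean difference of -1.60 points. The difference between the days was -15.4 points and was not tested. SUSD2 was found in 17.1% and 13.1% of the cells of pools A and B of D9 and in 2.98% and 1.38% on D13. The D13 shares rest on few cells, 41 with SUSD2 in all of pool A and 56 in all of pool B. Over D9 to D15 the difference was above 0 in 3 of 8 pools.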

How the results depend on the processing

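No log2 fold change that was called changed sign under the settings tried, but 21 of 1040 values did, in 14 gene comparisons that were not called, such as ALPL from D13 to D15 (-0.26, and 0.31 without pool A of D13). Of 38 calls, 19 held without each pool and 19 were lost without at least 1. Leaving out single pools gave 2 to 3 genes called higher from D3 to D5, 0 to 5 from D5 to D7, 4 to 6 from D7 to D9, and 0 from D9 to D11. Over all tested genes the same fits gave 213 to 285 in place of 409, 24 to 215 in place of 232, 259 to 392 in place of 587 and 34 to 157 in place of 373. Leaving out a single pool also changed which of the genes were called lower from D9 to D11, D11 to D13 and D11 to D15. Over all tested genes the number called lower changed in these comparisons as well. With only the 4 pools of both days in the fit, 0 genes were called higher on D3 than on D0 (0 of all genes), 0 on D5 than on D3 (27) and 1 on D15 than on D11 (825). With sums thinned to the smallest total, 2 were called higher from D3 to D5 (302 of all genes), 6 from D0 to D15 (3405), and 1 lower from D9 to D11 (114). From D11 to D13, 1 was called lower with DESeq2 (238 of all genes), with an adjusted p below 0.05 and no limit on the fold (158), and with no filter on genes (170 of 29281). The adjusted p below 0.05 also gave 1 called higher from D11 to D15 (882), and the fit with no filter gave 1 called lower from D0 to D15 (5433) and 4 from D9 to D15 (3199). Apart from fits with fewer samples or UMIs, the cause was not tested. The onset of DPPA3 was day 7 with 5% of the highest day or with 1 pool enough, and with 20% the onset was day 11 for DPPA5, 9 for ALPPL2, 9 for ALPL, 5 for ARGFX and 7 for SUSD2.

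No label ties the pools of different days by their letter. The correlation of B minus A deviations over 28 pairs of days had a median of 1.4e-06 and ran from -0.45 to 0.82, so the letter was not taken to pair them. With the letter as a replicate block, the genes called higher were 2, 5, 5, 7 and 2 in the adjacent comparisons from D0 to D11, as without it (1773, 418, 226, 600 and 420 of all genes).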

Other observations

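A few cells held many transcripts of genes of the eight-cell stage, a list of 12 genes, and UMIs of ALPPL2. These cells were found after the values were seen. In pool A of D11, 1 cell of 97570 UMIs held 789 UMIs of 9 of the 12 genes. Among them were 307 of CCNA1, 264 of KHDC1L, 155 of TRIM43 and 24 of TPRX1. ZSCAN4 gave 1 UMI, and DUXA, DPRX and PRAMEF1 gave 0. CCNA1 was not confined to such cells and was found in 585 cells of pool A and 411 of pool B of D11. The cell with 789 UMIs of the list held 216 UMIs of ALPPL2, 73 of DPPA3, 9 of KLF17, 3 of DPPA5 and 11 of ZFP42. It also held 16 UMIs of DPPA2, 15 of DPPA4, 5 of ALPL, 2 of ARGFX, 8 of SUSD2, 56 of POU5F1 and 1 of NANOG. In pool A of D13, 1 cell held 104 UMIs of 4 of the genes, 78 of them of CCNA1. With them came 36 of ALPPL2, 23 of DPPA3, 3 of KLF17, 44 of DPPA5, 35 of ZFP42, 33 of POU5F1 and 11 of NANOG. Another held 173 UMIs, all of CCNA1, with 34 of ALPPL2, 1 of DPPA3, 0 of KLF17, 9 of DPPA5, 19 of ZFP42, 109 of POU5F1 and 16 of NANOG. No other pool had a cell with at least 50 UMIs of the list. Whether such a barcode held 1 cell was not tested.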
